A study of Oryza sativa Japonica Group with 3 samples.

Results

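The NADPH oxidases of the Rboh family were followed in rice seedlings grown from seed that had been left untreated or implanted with low-energy nitrogen ions. The family was taken as 9 loci of the rice genome, RbohA to RbohI, chosen by their locus identifiers and not by their measured values, out of 55759 annotated loci in the files. All 9 were listed, with 17 transcript models between them, and the files themselves attach no gene names to the identifiers. Messenger RNA was sequenced from whole seedlings of the japonica cultivar Xindao-18, kept on wet filter paper at 28 °C under 12 h light and 12 h dark and harvested at 96 h. The control library came from untreated seed. The low fluence library mixed 10 µg of RNA each from seedlings given 1 and 2, and the high fluence library 10 µg each from seedlings given 6 and 8, in units of 1e+17 nitrogen ions per square centimetre. The labels write that exponent without superscript. Each pool held 50 buds of like height. The labels class the low fluence sample as showing no significant growth inhibition relative to control and the high fluence sample as showing it, an effect scored on day 7, after the harvest. Each group had 1 library of pooled RNA, so no difference could be set against a spread between replicates, and no p-value is given.

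Rboh proteins are the plant relatives of the phagocyte NADPH oxidase. They sit in the plasma membrane, take electrons from NADPH in the cytosol and pass them through FAD and haem to oxygen outside the cell, making superoxide, which is then turned into hydrogen peroxide. Calcium binding to EF-hands in the cytosolic N-terminus, phosphorylation and binding of Rac/Rop small GTPases switch them on. The reactive oxygen they release acts in defence against pathogens, in stress signalling and in growth of roots and other organs. The letters of the rice proteins do not mark the Arabidopsis proteins with the same letters as their counterparts.

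Values are FPKM as deposited (fragments per kilobase of a transcript, relative to the number mapped), summed over the transcripts of a locus, which allows levels to be compared between genes per length. Ratios are of FPKM + 1, a scale on which low loci show too small a change. A locus was taken as measured if its mean over the libraries reached 1 FPKM, and as different if 2 libraries stood 2-fold or more apart. Where 3 values are given in a row, they are for the control, the low fluence and the high fluence library, in that order. Of the 9 loci, 7 were measured, and RbohD and RbohF fell below 1 FPKM. An estimate of relative depth from the lowest values put the low fluence library at 0.501 times the control and the high fluence library at 1.36 times. In bulk RNA of whole seedlings, fewer cells of a type and less RNA per cell cannot be told apart.

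As deposited, the family as a whole held a nearly constant level. The FPKM sum over the 9 loci was 210.9, 208.9 and 211.9, giving log2 ratios to control of -0.01 and 0.01. That sum made up 0.0347%, 0.0356% and 0.0401% of the FPKM of all annotated loci. Bringing all libraries to the control library's FPKM total put the family sum at log2 ratios to control of -0.16 and 0.87. Of each library's own total, 2 assembled transcripts held 73.3%, 76.3% and 53.0%. The same scaling put the median of all measured annotated loci at -0.18 and 0.67, where it was -0.05 and -0.10 as deposited, and 26.1% of them at least 2-fold above control at high fluence. The values below are as deposited unless that scaling is named.

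Within the family, 3 loci carried most of the signal, and 2 lay more than 1.5-fold from their own control value. RbohI, RbohB and RbohG together made up 77.9%, 83.6% and 77.4% of the family sum. RbohA was low in the low fluence library, 2.84-fold below control, where 2.96% of measured annotated loci lay as far or farther. RbohH was high in the high fluence library, 1.98-fold above control, where 10.8% lay as far or farther. The other 5 measured loci lay within 1.5-fold of control in both irradiated libraries. Among all measured annotated loci, 82.4% lay that close at low fluence and 71.3% at high fluence.

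**Figure D1:**
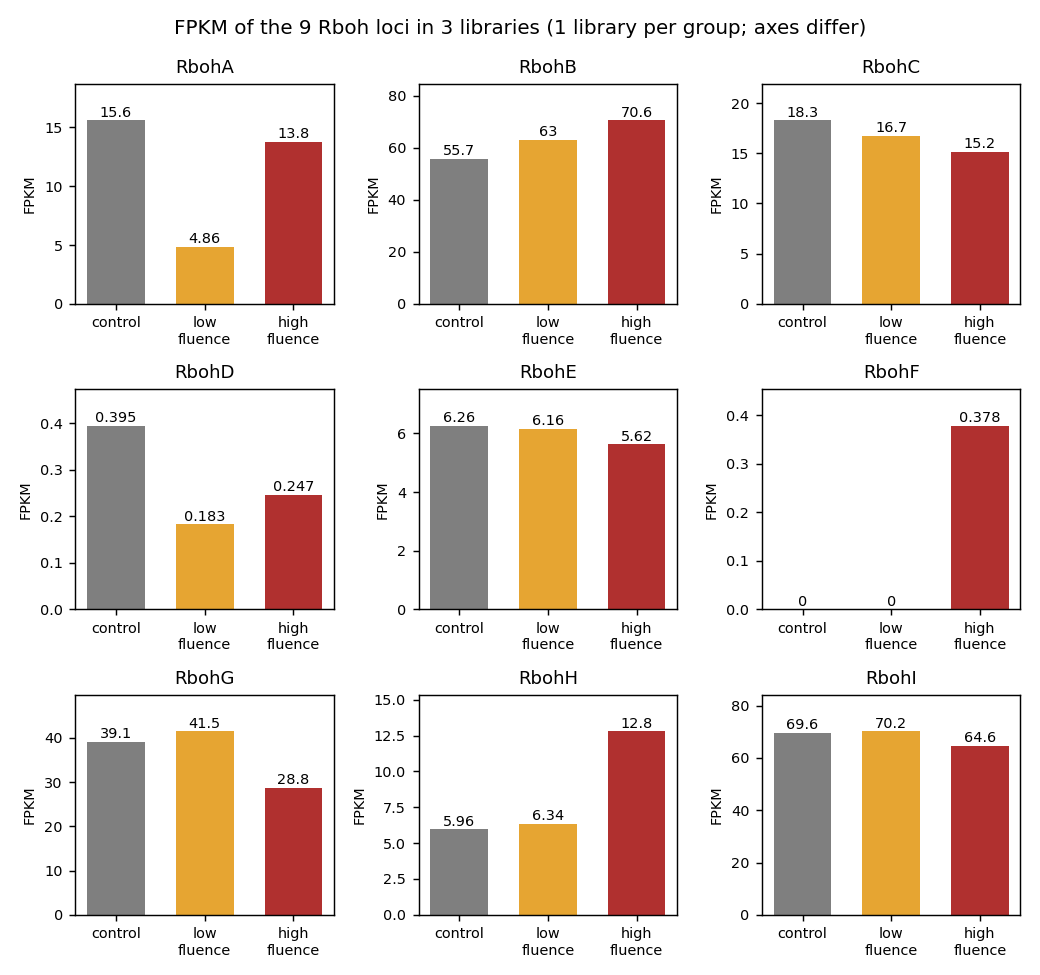
FPKM of each of the 9 Rboh loci (vertical axis, linear, starting at 0 and differing between panels) in the control, low fluence and high fluence libraries, 1 bar per library. RbohA stands at 4.86 FPKM at low fluence against 15.6 and 13.8, and RbohH at 12.8 FPKM at high fluence against 5.96 and 6.34.

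RbohI (LOC_Os11g33120), on chromosome 11, had the highest mean level, at 69.6, 70.2 and 64.6 FPKM. Its mean exceeded that of 92.2% of measured annotated loci. The 3 libraries lay within a narrow band, at most 1.08-fold apart on the FPKM + 1 scale. Under the control library's total the log2 ratio of high to low fluence was 0.88, against a median of 0.85 over measured annotated loci.

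RbohB (LOC_Os01g25820), on chromosome 1, followed at 55.7, 63.0 and 70.6 FPKM. In rice, its N-terminus binds the small GTPase Rac1, and the protein takes part in immunity. Its values stood upward in order of fluence, 1.13-fold above control at low fluence and 1.26-fold at high fluence. Under the control library's total its high fluence log2 ratio to control was 1.19, past 2-fold, as 26.1% of measured annotated loci were. As shares of the family sum these values were 26.4%, 30.1% and 33.3%. Of all measured annotated loci, 51.8% lay at least as far from control at high fluence, in either direction. RbohH also stood upward in order of fluence, but only 1.05-fold above control at low fluence. Under the control library's total that low fluence log2 ratio was -0.05. RbohC and RbohE stood downward in order of fluence as deposited. The share of all loci in such an order is not given.

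RbohG (LOC_Os09g26660), on chromosome 9, stood at 39.1, 41.5 and 28.8 FPKM. Its high fluence value was the lowest of the 3, 1.35-fold below control and 1.43-fold below low fluence. Scaled to the control library's total it was the highest, at a log2 ratio to control of 0.41. The median of all measured annotated loci was then 0.67. As deposited, 41.7% of measured annotated loci lay as far from control at high fluence as RbohG or farther.

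RbohC (LOC_Os05g45210), on chromosome 5, stood at 18.3, 16.7 and 15.2 FPKM. RbohE (LOC_Os01g61880), on chromosome 1, stood at 6.26, 6.16 and 5.62 FPKM. Both were lowest at high fluence, 1.19-fold below control for RbohC and 1.10-fold for RbohE, and 62.1% and 79.5% of measured loci lay at least that far from control. Scaling to the control library's total turned both to higher, at log2 ratios of 0.57 and 0.63. Both stayed under the median of all measured annotated loci, 0.67 under that scaling.

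The values listed for the RbohD and RbohF loci were close to undetected in whole seedlings. RbohD (LOC_Os05g38980), on chromosome 5, stood at 0.395, 0.183 and 0.247 FPKM. RbohF (LOC_Os08g35210), on chromosome 8, was listed at 0 in the first 2 libraries and at 0.378 FPKM in the high fluence library. The only value of RbohF above 0 was in the library with the greatest estimated depth, and the part of depth in it was not tested. No direction is read from either locus at these levels.

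Levels formed an order in which several neighbours could not be separated. The ranges of RbohI and RbohB over the 3 libraries overlapped. That of RbohG lay below both and above that of RbohC. RbohC overlapped RbohA, which overlapped RbohH, which overlapped RbohE. RbohD and RbohF overlapped each other, below all the others.

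At low fluence, RbohA was the one Rboh locus that differed at least 2-fold from control, and it was lower. Among all 18934 measured annotated loci, 3.52% were lower by that much in this comparison and 3.06% higher, 6.58% in all. RbohA (LOC_Os01g53294), on chromosome 1, is linked in rice to growth and drought tolerance. It stood at 15.6, 4.86 and 13.8 FPKM. Low fluence was thus set apart from the other two libraries, 2.84-fold below control on the FPKM + 1 scale. Only 2.96% of measured annotated loci lay as far from control or farther. The other 6 measured loci lay between log2 ratios of -0.12 for RbohC and 0.17 for RbohB. Of the 7 measured loci, 4 were above control and 3 below (1 and 6 under the control library's total). Their median log2 ratio was 0.01, against -0.05 over all measured annotated loci, of which 43.9% were above control.

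The low value of RbohA was mirrored by an assembled transcript unit listed directly beside it in the files. For this unit, CUFF.1315, the files give neither a position nor a gene. It stood at 6.81, 14.3 and 4.47 FPKM, high in the library where RbohA was low. At low fluence 13.1 of the 14.3 FPKM belonged to its transcript CUFF.1315.2. Locus and unit together summed to 22.4, 19.1 and 18.2 FPKM. The summed values differed by 1.16-fold between low fluence and control, and by 1.05-fold between high and low fluence. Of the 666 annotated loci at least 2-fold lower at low fluence, 249, or 37.4%, were offset by assembled units listed beside them. In these, a unit beside the locus stood at least 1.5-fold to the opposite side. Adding all units beside the locus brought it under 1.5-fold of control. Whether reads of RbohA were assigned to CUFF.1315 was not tested.

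**Figure D2:**
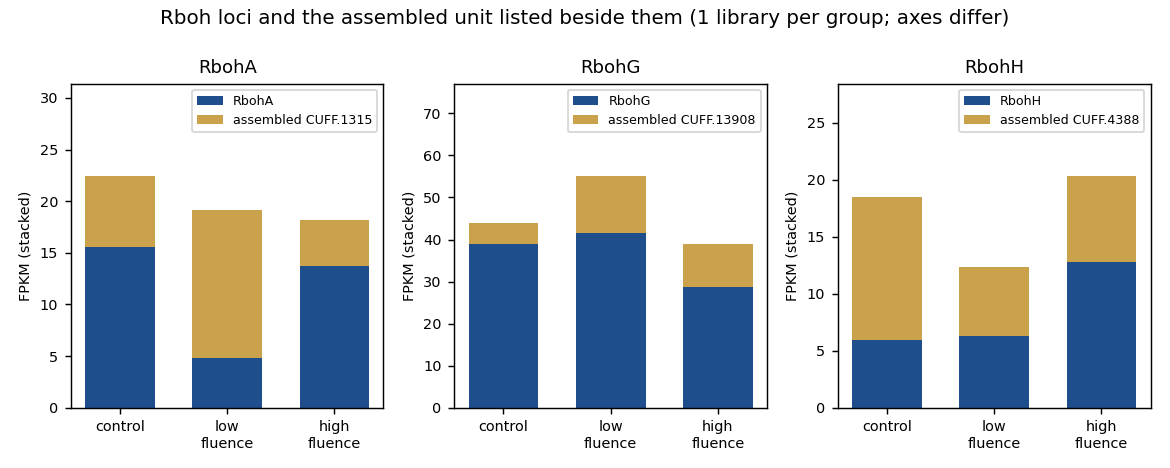
Stacked FPKM (vertical axis, linear, differing between panels) of RbohA, RbohG and RbohH (blue) and the assembled unit listed beside each (gold), 1 bar per library; a unit at 0 throughout is not drawn. For RbohA the sum stays between 18.2 and 22.4 FPKM, with RbohA low and its unit high at low fluence. At high fluence both stood below control.

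Assembled units were listed beside 7 of the 9 loci, 9 units in all, and beside neither RbohC nor RbohI. The unit beside RbohF, CUFF.13254, stood at 20.8, 19.0 and 17.9 FPKM, far above RbohF itself. CUFF.9949, beside RbohD, stood at 4.69, 3.94 and 4.05 FPKM, also far above its locus. The unit beside RbohG, CUFF.13908, stood at 4.97, 13.6 and 10.2 FPKM, so that locus and unit together came to 44.0, 55.1 and 38.9 FPKM. Whether any of these units is part of an Rboh gene cannot be told from the files.

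At high fluence, none of the 7 measured Rboh loci differed at least 2-fold from control as deposited, where 10.6% of measured annotated loci did, 4.23% being higher and 6.33% lower. RbohH came nearest. Its locus, LOC_Os12g35610, lies on chromosome 12, and in rice roots its product takes part in forming aerenchyma, the gas spaces that open under oxygen shortage. It stood at 5.96, 6.34 and 12.8 FPKM. The high fluence library was set above both others, which lay close together, and the ratio to control was 1.98-fold on the FPKM + 1 scale, or 2.15-fold between the FPKM values themselves. Of all measured annotated loci, 10.8% lay as far from control or farther. RbohH passed 2-fold with a pseudocount of 0.1 (log2 ratio of 1.09) and under each of the 5 other scalings. Its log2 ratio was 1.03 with median-of-ratios and 1.04 with upper-quartile scaling, and 1.17 with the control library's annotated total. It was 1.55 with a total of 1000000 per library and 1.80 with the control library's total. Those 2 totals divide by the same library sums and differ only by a constant factor beside the 1 that is added.

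The unit CUFF.4388, listed beside RbohH, stood at 12.6, 6.03 and 7.51 FPKM. Added to RbohH it gave 18.5, 12.4 and 20.3 FPKM, a sum 1.09-fold above control at high fluence. The sum was still highest in the high fluence library, 1.59-fold above low fluence. A second unit beside it was listed at 0 throughout.

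The other measured loci at high fluence ranged from a log2 ratio of -0.43 for RbohG to 0.34 for RbohB. As deposited, 5 of the 7 were below control and 2 above. Scaling to the control library's total put all 7 above, with the median of all measured annotated loci at 0.67. The median log2 ratio of the 7 as deposited was -0.13, against -0.10 over all measured annotated loci, of which 41.6% were above control. The irradiated libraries were compared with the same control library, so its noise enters both ratios of a locus.

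**Figure D3:**
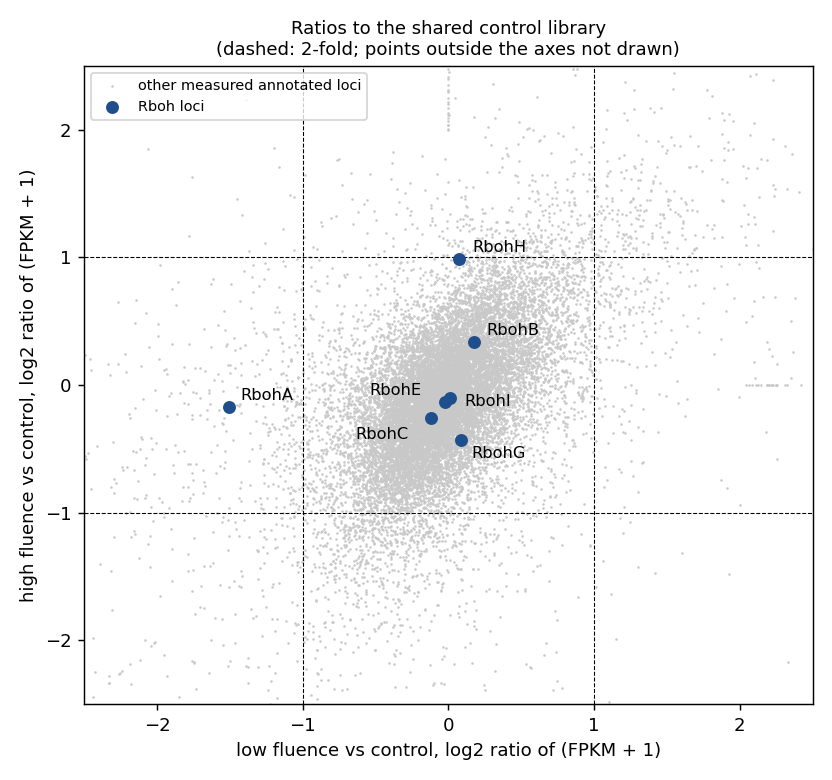
Log2 ratio of (FPKM + 1) to control at low fluence (horizontal) and high fluence (vertical) for the 7 measured Rboh loci (blue) and all other measured annotated loci (grey), with dashed lines at 2-fold; both axes share the control library. RbohA lies to the left of the 2-fold line, RbohH at 0.99 on the vertical axis just under it, and the other 5 nearer the centre.

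Between the irradiated libraries, RbohA was again the locus that differed at least 2-fold, 2.52-fold higher at high than at low fluence, where 3.61% of measured annotated loci were higher by that much and 4.56% lower, 8.18% in all. Adding its neighbouring unit turned this to a log2 ratio of -0.07. RbohH was 1.88-fold higher at high fluence, and 9.79% of measured loci lay that far apart or farther. RbohG was 1.43-fold lower, while under the control library's total all 7 were higher at high fluence. Under that scaling the median log2 ratio of all measured annotated loci was 0.85. As deposited, the median log2 ratio of the 7 was -0.11, against -0.06 over all measured annotated loci.

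The family's transcript models added detail that the locus sums hide, although the division of FPKM between overlapping models of a locus is an estimate. Of the 17 models, 1 was listed at 0 in all libraries, LOC_Os01g61880.1 of RbohE. RbohI was divided between its first model, at 50.6, 46.4 and 55.3 FPKM, and its second, at 18.9, 23.4 and 9.33 FPKM. The second model thus made up 27.2%, 33.3% and 14.4% of the locus, while the locus sum hardly differed. It was 1.93-fold below control and 2.36-fold below low fluence in the high fluence library.

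RbohC showed an exchange between its minor models. The first stood at 3.89, 0.996 and 0.708 FPKM, and the second at 0.146, 3.27 and 2.00 FPKM. The first was highest and the second lowest in the control, with both irradiated libraries on the same side. The remaining model, numbered 3, held 77.9%, 74.5% and 82.1% of the locus.

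RbohH came almost wholly from its model numbered 3, at 5.96, 6.34 and 11.9 FPKM. Its first and second models were listed at 0 in the control and at low fluence, and at 0.497 and 0.407 FPKM at high fluence. RbohB came from its first model, which held at least 98.1% of the locus in every library.

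**Figure D4:**
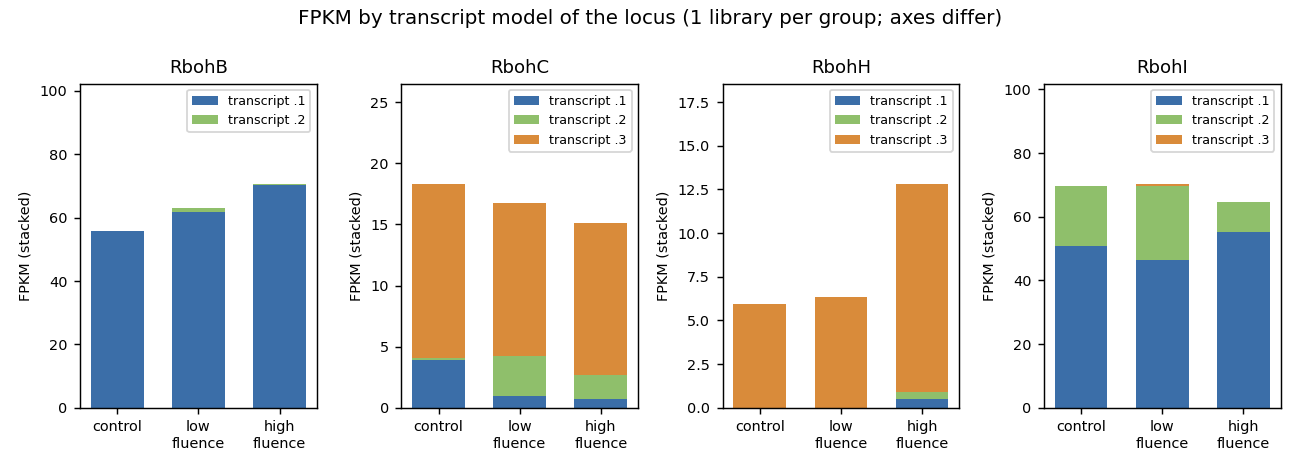
FPKM by transcript model (stacked colours; vertical axis linear and differing between panels) for the 4 Rboh loci in which more than 1 model was above 0, 1 bar per library. The second model of RbohI is smallest at high fluence, at 9.33 FPKM, and the first model of RbohC is largest in the control, at 3.89 FPKM.

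Genes that act around the Rboh proteins were listed by locus identifier from general knowledge of rice, without annotation in the files, and are given mainly as counts. Of 7 loci listed for Rac/Rop small GTPases, the switches that bind Rboh proteins, 6 were measured. All 6 were below control at low fluence, by less than 2-fold, where 43.9% of measured annotated loci were above it. The median log2 ratio of the 6 was -0.25, against -0.05 over all measured annotated loci. At high fluence 5 of the 6 were below control, where 41.6% of measured annotated loci were above it. Under the control library's total 1 of the 6 was below control, where the median log2 ratio of all measured annotated loci was 0.67. LOC_Os02g20850 passed 2-fold as deposited but not under that scaling, at 43.8, 26.3 and 19.7 FPKM. As deposited, 6.33% of measured annotated loci were lower by that much at high fluence.

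Of 10 loci listed for immune receptors, kinases and cofactors upstream of Rboh activation, none differed 2-fold in any comparison as deposited. Among measured annotated loci, 6.58% differed so from control at low fluence, 10.6% at high fluence, and 8.18% between the irradiated libraries. The median log2 ratios of the 10 to control were -0.15 and -0.37, against -0.05 and -0.10 over all measured annotated loci. The control library's total turned all 10 to higher at high fluence, 1 of them past 2-fold, where 26.1% of measured annotated loci were. The median log2 ratio of all measured annotated loci was then 0.67. The summed FPKM of the 10 was 605, 536 and 427.

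Of 10 loci listed for superoxide dismutases and catalases, which take up the superoxide and hydrogen peroxide that Rboh activity yields, 1 was at least 2-fold above control at low fluence and none differed 2-fold from control at high fluence. Of the 10, 5 stood above control at low fluence, and 4 did so in the high fluence library. The control library's total put 4 of them at least 2-fold higher at high fluence, where it did so for 26.1% of all measured annotated loci. The one was LOC_Os03g03910, at 1.32, 5.94 and 1.11 FPKM. It was high at low fluence alone, 2.99-fold above control.

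Of 2 loci listed for ferric reductases, membrane enzymes with a haem-binding domain related to that of Rboh proteins, LOC_Os04g48930 stood at 2.56, 7.61 and 16.6 FPKM. It was 2.42-fold and 4.95-fold above control, with the 3 libraries in order of fluence. The other listed locus was lower than control in both irradiated libraries by less than 2-fold. Under the control library's total it was higher at high fluence, as was the median of all measured annotated loci, at 0.67.

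Marker loci of seedling tissues, listed from general knowledge in the same way, were present but differed between the libraries. Of the 4 loci listed as root markers, 4 were at least 2-fold below control at high fluence under every scaling tried, and their summed FPKM was 1181, 677 and 293. Of 8 loci listed as leaf markers, 7 were in the files, and their sum was 951, 1385 and 416 FPKM. At low fluence all 7 were above control, LOC_Os12g17600 and LOC_Os01g52240 by at least 2-fold as deposited. Of measured annotated loci, 3.06% were higher by that much, and 43.9% were above control. At high fluence 4 were at least 2-fold below control under every scaling tried, where 6.33% of measured annotated loci were as deposited. These were LOC_Os03g39610 (58.0-fold lower as deposited), LOC_Os09g17740 (47.0-fold), LOC_Os01g41710 (29.1-fold) and LOC_Os01g52240 (5.60-fold). LOC_Os12g17600 stood above control, at 163.9, 348.0 and 305.9 FPKM, and passed 2-fold under 3 of the scalings. These were the total of 1000000, the control library's total, which divides by the same library sums, and its annotated total. The remaining leaf markers in the files were lower by 1.42-fold and 1.10-fold as deposited. The leaf list thus did not differ from control as one at high fluence, and its sum does not stand for every locus in it. The 2 loci listed for germinating seed summed to 32.5, 0.360 and 2.62 FPKM. LOC_Os02g52710 among them was listed at 0 at low fluence, and no other marker in the files was at 0 in any library. That locus held 31.4 FPKM of the control sum and had 0.365 FPKM left at high fluence. The second seed locus, LOC_Os08g36910, with 1.11, 0.360 and 2.25 FPKM, went the other way at high fluence. There it exceeded control by 1.54-fold and low fluence by 2.39-fold on the FPKM + 1 scale. The part of these differences in the Rboh values was not tested.

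For RbohH, the measured Rboh locus farthest from control at high fluence, the loci with the most similar pair of log2 ratios to control were sought among the 9265 annotated loci whose mean reached 10 FPKM. The nearest was LOC_Os05g10210, at 22.3, 23.3 and 45.1 FPKM, a distance of 0.02 in the plane of the ratios. The next was LOC_Os09g04440, at 11.7, 12.4 and 24.5 FPKM, also at a distance of 0.02. With 3 libraries, so close a match describes these values only.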

How the data were processed

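The authors deposited 1 FPKM value per transcript for each of 3 libraries, per the file headers. The aligner named by the labels is TopHat2 2.0.5, from the submitters' processing notes. Neither the quantifier nor the genome build, annotation release or strand setting is stated in the sources used here. FPKM carries no total counts, so absolute depth is unknown and no interval for counting error can be formed. The depth of 1 library relative to another was read from single-transcript loci under 0.2 FPKM in both, as the commonest ratio among ratios of whole numbers up to 6 (tolerance 1%).

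FPKM was summed over the transcripts of a locus, and log2 ratios of FPKM + 1 were formed (Python 3.11.15, pandas 2.3.3, numpy 2.4.6). All 9 Rboh loci are named. Loci of other lists are named only where they differed at least 2-fold as deposited at a mean of at least 1 FPKM. Some markers that did so are not named, and the named ones were chosen after their values were seen. Transcripts of measured Rboh loci may be named, and the 2 loci nearest to RbohH are named by the rule given with them. The members, lists and rules were chosen with earlier results of these data known. The assembled units were chosen by their place in the files, and the share of loci offset by such units was computed after the values were seen. Alternatives were 11 settings chosen at the outset and 2 added later, both rescalings to the control library. Sequences were not used here.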

Additional observations from a re-analysis of the deposited data

How the results depend on the processing

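Each group had 1 library, so no alternative can show the spread between seedlings. No paired analysis was possible because each group had 1 library and no test was made. The count of Rboh loci at least 2-fold different from control at low fluence was 1, and 0 with a ratio of at least 3 or with the assembled units beside each locus added. The count at high fluence was 0, became 1 (RbohH) with median-of-ratios scaling, upper-quartile scaling, a pseudocount of 0.1, a ratio of at least 1.5 or the annotated total of the control library, and 2 (RbohB and RbohH) with a total of 1000000 per library or the total of the control library. Between high and low fluence the count was 1. It became 2 with a pseudocount of 0.1, a ratio of at least 1.5 or the annotated total of the control. It was 3 with a total of 1000000 or the total of the control. It was 0 with a pseudocount of 5, a ratio of at least 3 or the assembled units added. Over all measured annotated loci, the total of the control put 26.1% at least 2-fold above control at high fluence. It put 35.9% at least 2-fold higher at high than at low fluence. As deposited, 71.3% of these loci lay within 1.5-fold of control at high fluence, and 78.0% lay within 1.5-fold between high and low fluence. Shares for the remaining settings are not given.

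The log2 ratio of the family sum became -0.15 (low to control), 0.86 (high to control) and 1.01 (high to low) with a total of 1000000 per library, and -0.16, 0.87 and 1.02 with the total of the control. With the annotated total of the control it was 0.21 for high to control and 0.17 for high to low fluence, and with the highest transcript of each locus alone 0.14 for high to low fluence. Over all measured annotated loci, the median of high fluence against control shifted by 0.67, 0.77 and 0.17 (log2) under the scalings to 1000000, to the control's total and to its annotated total. The ratio of RbohA between high and low fluence turned from 1.33 to -0.066 with its neighbouring unit added. RbohA stayed below control at low fluence under all 9 alternatives run on ratios, from -1.66 to -0.22, and RbohH above control at high fluence under the same 9, from 0.13 to 1.80. A value was taken as moved at a change of 0.1 in log2. The low fluence library was the shallowest by the estimate, which limits its lowest values most.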
